A study of Mus musculus with 8 samples.

Results

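Macrophages that clear dying cells read phosphatidylserine on the dying cell's surface, either directly or through secreted bridging molecules. This section describes 10 mouse genes of that machinery in cultures with and without the chromatin remodelling subunit Baf60a: the bridging molecules Gas6, Pros1 and Mfge8, the TAM receptor tyrosine kinases Mertk, Axl and Tyro3, the integrin chains Itgav, Itgb3 and Itgb5, and the phosphatidylserine receptor Timd4. They were chosen by name, as gene identifiers of the deposited table that map to these symbols in GENCODE M21, and all 10 were found among the 55421 identifiers of the table. Of the 10, 9 passed the filter on low values (over 1 TPM in at least 4 libraries) and were tested together with 13933 genes in all. Timd4 did not pass and is given as values only.

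RNA was sequenced from 8 libraries of bone marrow derived macrophages (BMDM), primary cells of C57 mice grown from marrow under differentiation conditions and taken at day 7. There were 4 libraries from wild-type (WT) and 4 from Baf60a knockout (KO) cultures, and the labels give both groups the same differentiation treatment. Baf60a is the protein made from Smarcd1, a subunit of the SWI/SNF complexes. Which part of the gene was deleted, in which cells, and how old the mice were is not stated in the labels. Nor do they say if each library is a mouse of its own, so p-values measure only the spread between these libraries, which may be technical. Smarcd1 ranged from 14.01 to 16.25 TPM in WT libraries and from 9.91 to 10.85 in KO libraries (log2 fold change -0.47, limma adjusted p = 0.00756), so transcripts of the gene were still counted in every library labelled KO.

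TPM, the unit of all levels here, corrects for transcript length and gives each library the same total, so levels can be compared between genes, while the read count of each library is unknown. Between 13727 and 14027 genes were over 1 TPM per library. Processed pseudogenes held 12.4% and 12.6% of TPM in WT replicates 3 and 4, against 7.05% to 8.72% in the other 6 libraries. Where leaving out both of these libraries ended the call of a member or a named pathway gene, the value without them is given beside it. In the labelled macrophages Cd68, a lysosomal glycoprotein of macrophages, was at 1322 to 1823 TPM over all libraries and Csf1r, the receptor of the macrophage growth factor, at 90.8 to 122 TPM. The cultures also held stromal transcripts: the collagen gene Col1a1 had 1431 to 1605 TPM in WT libraries and 1807 to 1939 in KO libraries. In bulk RNA, fewer cells of a type and less RNA per cell cannot be told apart.

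As background, Gas6 and protein S (Pros1) carry a vitamin K dependent domain that binds phosphatidylserine and a second domain that binds TAM receptors. Gas6 binds Mertk, Axl and Tyro3, and protein S binds Mertk and Tyro3. Mfge8 binds phosphatidylserine on one side and, through an arginine-glycine-aspartate motif, the αvβ3 and αvβ5 integrins on the other; Itgav encodes the αv chain and Itgb3 and Itgb5 the β chains. Tim-4, encoded by Timd4, binds phosphatidylserine itself and is known as a marker of resident macrophages.

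In Baf60a KO cultures the bridging molecules Gas6 and Mfge8 and the integrin chain Itgb5 rose, by 1.33-fold, 1.21-fold and 1.21-fold on the log2(TPM + 1) scale. The 3 TAM receptors and Pros1 had higher means in KO without passing the test, Itgav differed least, and Itgb3 was the 1 member with a lower mean. Calls were made with limma on log2(TPM + 1), where changes of genes at low TPM come out too small, at a Benjamini-Hochberg adjusted p under 0.05 over all genes tested. Of the 9 members tested, 3 were called higher, 0 lower and 6 did not pass; 8 of the 9 had an unadjusted p under 0.05, as did 3108 of the 13933 genes tested. Over all genes tested 5.61% were called, 4.4% higher in KO and 1.21% lower. The median log2 fold change was 0.24 over the 9 members and 0.03 over all genes tested. The number of members called was 1 (Mfge8) without WT replicates 3 and 4, 1 (Gas6) without KO replicate 4, and between 2 and 4 without any other single library.

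**Figure D1:**
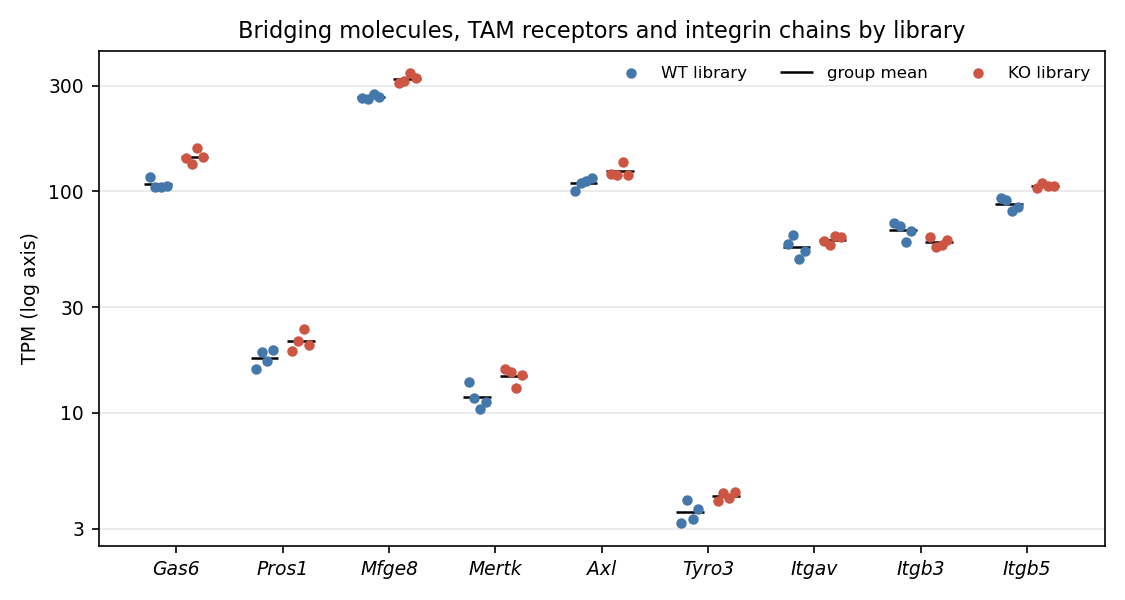
TPM of the 9 tested members (log axis) in the 4 WT and 4 KO libraries, points for libraries and bars for group means. Mfge8 was highest at 260.1 to 341 TPM and Tyro3 lowest at 3.18 to 4.40. The KO points lie wholly above the WT points for Gas6, Mfge8, Axl and Itgb5, as they do for 11.9% of all genes tested.

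Gas6 (ENSMUSG00000031451; build mm10, chromosome 8, 13465374 to 13494490, minus strand) had the largest difference of the members. Replicates 1 to 4 of WT had 116.51, 104.57, 104.14 and 105.79 TPM, while the same replicates of KO had 141.43, 132.49, 156.60 and 143.25 TPM. Every KO library was above every WT library, which held for 11.9% of all genes tested, and WT replicate 1 was above the other 3 WT libraries. The means were 108 ± 5.88 TPM in WT and 143 ± 9.95 in KO (SD, n = 4 each), a log2 fold change of 0.41 (SE 0.060, limma adjusted p = 0.0105). Leaving out any single library kept the adjusted p at or under 0.0445, and leaving out WT replicates 3 and 4 together gave 0.0504.

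Mfge8 (ENSMUSG00000030605; chromosome 7, 79133768 to 79149060, minus strand) was the most abundant member. The WT libraries, replicates 1 to 4, had 264.63, 260.10, 275.68 and 265.67 TPM; the KO libraries had 307.39, 314.91, 341.23 and 323.55. All KO libraries were above all WT libraries (11.9% of all genes tested). The coefficient of variation among WT libraries, 2.46%, was the smallest of the 9 tested members. Means were 267 ± 6.57 and 322 ± 14.6 TPM (log2 fold change 0.27, SE 0.042, limma adjusted p = 0.0127). The call ended without KO replicate 4 (adjusted p = 0.0540).

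Pros1 (ENSMUSG00000022912; chromosome 16, 62854307 to 62929346, plus strand), the other vitamin K dependent ligand and an anticoagulant of plasma, was far less abundant than Gas6. Its TPM was 15.81, 18.83, 17.14 and 19.18 in WT and 19.12, 21.22, 23.91 and 20.30 in KO. In KO, 3 of the 4 libraries were above the highest WT library, and KO replicate 1 fell just short of WT replicate 4. The log2 fold change was 0.24 (95% interval 0.05 to 0.43) and did not pass (limma adjusted p = 0.134). Gas6 made up 85.8% ± 1.58 of the summed TPM of the 2 TAM ligands in WT and 87.2% ± 0.846 in KO (SD, n = 4 each).

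The RefSeq table of promoters (GRCm38.p6, the assembly of mm10; 250 bases before to 50 after a gene's start) held 9 of the members, all but Itgb3. The sequences below are those of the 3 genes that rose and, for contrast, of Timd4, which was near 0. Capitals mark GC boxes (GGGCGG on either strand), the short motif bound by Sp1 family factors, and in Timd4 a MAF motif (TGCTGAC on either strand).
Gas6, chr8:13494486-13494785, minus strand: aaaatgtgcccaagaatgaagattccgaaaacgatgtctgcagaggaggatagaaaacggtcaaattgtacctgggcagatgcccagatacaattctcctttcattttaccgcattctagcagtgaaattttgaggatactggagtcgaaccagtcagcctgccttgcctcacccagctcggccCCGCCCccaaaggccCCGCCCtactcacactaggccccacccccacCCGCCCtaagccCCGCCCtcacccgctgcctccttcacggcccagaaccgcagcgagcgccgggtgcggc
Mfge8, chr7:79149011-79149310, minus strand: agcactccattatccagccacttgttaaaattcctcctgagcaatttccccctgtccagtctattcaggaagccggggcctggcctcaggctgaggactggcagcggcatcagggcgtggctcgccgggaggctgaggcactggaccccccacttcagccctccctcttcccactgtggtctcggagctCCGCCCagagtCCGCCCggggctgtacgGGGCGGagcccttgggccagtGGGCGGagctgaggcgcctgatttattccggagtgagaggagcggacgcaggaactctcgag
Itgb5, chr16:33829415-33829714, plus strand: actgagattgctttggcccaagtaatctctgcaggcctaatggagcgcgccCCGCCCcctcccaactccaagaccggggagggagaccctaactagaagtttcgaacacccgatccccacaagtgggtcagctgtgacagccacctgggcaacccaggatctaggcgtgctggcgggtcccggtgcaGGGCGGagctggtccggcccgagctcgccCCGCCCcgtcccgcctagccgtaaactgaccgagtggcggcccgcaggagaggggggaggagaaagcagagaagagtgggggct
Timd4, chr11:46810549-46810848, plus strand: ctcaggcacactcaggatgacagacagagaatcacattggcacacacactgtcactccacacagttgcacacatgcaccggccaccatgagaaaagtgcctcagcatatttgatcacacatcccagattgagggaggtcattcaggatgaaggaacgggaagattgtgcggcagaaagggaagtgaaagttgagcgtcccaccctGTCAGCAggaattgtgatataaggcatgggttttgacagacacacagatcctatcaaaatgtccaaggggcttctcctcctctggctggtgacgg

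The Gas6 promoter held 4 GC boxes, that of Mfge8 4, that of Itgb5 3 and that of Timd4 0. A GC box was present in 8 of the 9 promoters of members, all but that of Timd4, whether the gene was called or not. The share was 35.7% among all 32851 promoters. The GC content was 58.3% for Gas6, 64.3% for Mfge8, 65.7% for Itgb5 and 50.7% for Timd4, against a median of 52.7% over all promoters. An AP-1 site (TGANTCA), an E-box (CACGTG) and the DR4 element of liver X receptors were in 0 of the 9; they were in 7.81%, 7.15% and 0.0152% of all promoters. The PU.1 motif GAGGAAGT was in 1 of the 9, Itgav (3.2% of all promoters), and the MAF motif in 1, Timd4 (4.67%). Motifs were searched on both strands, and a match describes letters only.

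Of the TAM receptors, Axl was the most abundant. Axl (ENSMUSG00000002602; chromosome 7, 25757273 to 25788705, minus strand) had 100.77, 108.81, 110.98 and 114.43 TPM across WT replicates 1 to 4, whereas KO replicates 1 to 4 had 119.72, 118.92, 135.86 and 119.13. The groups did not overlap, which held for 15.8% of all genes tested (11.9% with KO above WT and 3.96% with KO below), and KO replicate 3 stood above the other KO libraries. The log2 fold change of 0.18 (95% interval 0.05 to 0.31) did not pass the test (limma adjusted p = 0.111), and it was 0.13 without KO replicate 3.

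Mertk (ENSMUSG00000014361; chromosome 2, 128698956 to 128802894, plus strand), the receptor best known for uptake of apoptotic cells by macrophages, was at 13.84, 11.68, 10.40 and 11.21 TPM in WT and at 15.81, 15.36, 12.93 and 14.83 in KO. WT replicate 1 lay above KO replicate 3, and the other 3 KO libraries were above all WT libraries. Its difference was the second largest of the members (log2 fold change 0.30, 95% interval 0.09 to 0.51) and did not pass (limma adjusted p = 0.0971). Without WT replicate 1 the log2 fold change was 0.38 and passed (adjusted p = 0.0411), and without WT replicates 3 and 4 it was 0.19 (0.273).

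Tyro3 (ENSMUSG00000027298; chromosome 2, 119797733 to 119818104, plus strand) was the lowest of the 9 tested members, at 3.18, 4.05, 3.33 and 3.70 TPM in WT and 3.99, 4.36, 4.13 and 4.40 in KO. WT replicate 2 lay above KO replicate 1. The log2 fold change was 0.20 (95% interval 0.02 to 0.38, limma adjusted p = 0.188). Of the summed TPM of the 3 receptors, Axl held 87.6% ± 1.52 in WT and 86.6% ± 1.48 in KO, Mertk 9.53% ± 1.54 and 10.4% ± 1.32, and Tyro3 2.87% ± 0.268 and 2.97% ± 0.230 (SD, n = 4 each).

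**Figure D2:**
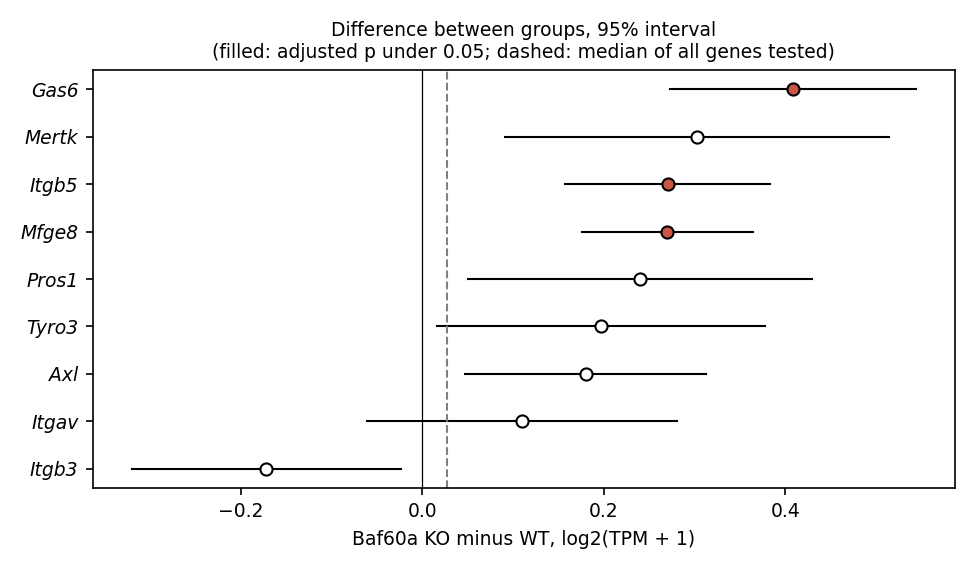
Difference of KO from WT in log2(TPM + 1) for the 9 tested members, with 95% intervals; filled points passed at adjusted p under 0.05 and the dashed line is the median of all genes tested (0.03). Gas6 (0.41), Itgb5 (0.27) and Mfge8 (0.27) passed, and Itgb3 (-0.17) is the 1 point below 0.

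Of the 2 integrin β chains, Itgb5 rose and Itgb3 did not pass the test. Itgb5 (ENSMUSG00000022817; chromosome 16, 33829665 to 33949338, plus strand) had 93.13, 91.46, 81.40 and 84.89 TPM across WT replicates 1 to 4, whereas KO replicates 1 to 4 had 103.33, 108.55, 105.31 and 106.26. All KO libraries were above all WT libraries (11.9% of all genes tested), and the KO libraries lay close together. Means were 87.7 ± 5.51 and 106 ± 2.17 TPM (log2 fold change 0.27, SE 0.050, limma adjusted p = 0.0240). The call ended in 5 of the 8 fits with 1 library left out, namely WT replicate 4 (adjusted p = 0.0666) and KO replicates 1 to 4 (0.0586, 0.0710, 0.0655 and 0.0768), and without WT replicates 3 and 4 (0.0508). The processed pseudogene Gm38317 is 99.7% identical to an Itgb5 transcript along 343 bases, which makes the assignment of reads there uncertain; its mean was 0.55 TPM.

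Itgb3 (ENSMUSG00000020689; chromosome 11, 104608000 to 104670476, plus strand), the β chain of the αvβ3 integrin, was at 71.78, 69.76, 59.13 and 66.39 TPM in WT and at 62.17, 56.35, 57.37 and 60.25 in KO. The groups overlapped, with 2 KO libraries below the lowest WT library, WT replicate 3. The log2 fold change was -0.17 (95% interval -0.32 to -0.02) and did not pass (limma adjusted p = 0.163). It passed as lower without WT replicate 3 (log2 fold change -0.23, adjusted p = 0.0465) and under median-of-ratios scaling of TPM (-0.21, adjusted p = 0.0486).

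Itgav (ENSMUSG00000027087; chromosome 2, 83724397 to 83806916, plus strand), which pairs with both β chains, was at 57.68, 63.73, 49.65 and 53.55 TPM in WT and at 59.44, 57.13, 63.09 and 62.23 in KO. The KO values lay within the WT range. The log2 fold change was 0.11 (95% interval -0.06 to 0.28, limma adjusted p = 0.441), and it was -0.0048 without WT replicates 3 and 4.

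Timd4 (ENSMUSG00000055546; chromosome 11, 46810800 to 46844332, plus strand) was near 0 in every library, at 0, 0.02, 0.02 and 0 TPM in WT and at 0.06, 0.02, 0.07 and 0.02 in KO. With TPM and no counts, no detection limit can be given. Of the 7 resident macrophage markers, Timd4 among them, 5 were under 1 TPM in all libraries, including Cd163 (0.05 to 0.32 TPM), Lyve1 (0.06 to 0.45 TPM) and Vsig4 (0 to 0.45 TPM), and Clec4f was listed at 0 throughout. Folr2, a folate receptor of resident macrophages, was at 137 to 168 TPM, and Spic, a transcription factor of red pulp macrophages, at 2.93 to 4.07 TPM.

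The order of levels in WT, as mean TPM, was Mfge8 (267), Axl (109), Gas6 (108), Itgb5 (87.7), Itgb3 (66.8), Itgav (56.2), Pros1 (17.7), Mertk (11.8), Tyro3 (3.57) and Timd4 (0.01). Axl and Gas6 overlapped between libraries, as did Itgb3 and Itgav, and the other neighbours did not. In KO the order was Mfge8 (322), Gas6 (143), Axl (123), Itgb5 (106), Itgav (60.5), Itgb3 (59.0), Pros1 (21.1), Mertk (14.7), Tyro3 (4.22) and Timd4 (0.0425), with the same neighbours overlapping. Gas6 was above its receptor Axl within the library in 1 of 4 WT and 4 of 4 KO libraries. Itgb3 was above its partner Itgav in 4 of 4 WT and 1 of 4 KO libraries.

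A ratio of TPM within a library does not depend on how libraries are scaled, and 5 such ratios were compared between the groups by exact two-sided permutation tests. Itgb5 to Itgb3 ran 1.30, 1.31, 1.38 and 1.28 over WT replicates 1 to 4, whereas KO replicates 1 to 4 had 1.66, 1.93, 1.84 and 1.76. The groups did not overlap, and the ratio was 1.36-fold higher in KO (difference in mean log2 ratio 0.45; exact p = 0.0286, the smallest that 4 against 4 libraries allows, and 0.143 adjusted over the 5 ratios). Itgb5 thus made up 56.8% ± 0.784 of the 2 β chains' TPM in WT and 64.2% ± 1.44 in KO (SD, n = 4 each). A single ratio at the smallest p cannot pass the adjustment over 5.

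Mfge8 to Gas6 was 2.48 ± 0.156 in WT and 2.25 ± 0.0949 in KO (SD, n = 4 each), a difference of -0.14 in log2 (exact permutation p = 0.0571, adjusted 0.143), with 3 of 4 KO libraries below every WT library. Gas6 to Pros1 was 6.13 ± 0.866 and 6.81 ± 0.514 (exact permutation p = 0.2, adjusted 0.333, n = 4 each). Axl to Mertk was 9.37 ± 1.5 and 8.46 ± 1.38 (exact permutation p = 0.457, adjusted 0.571, n = 4 each), and Tyro3 to Mertk was 0.307 ± 0.0524 and 0.288 ± 0.0280 (exact permutation p = 0.6, adjusted 0.6, n = 4 each). Without WT replicates 3 and 4 the differences of these last 2 ratios changed sign, to 0.0263 and 0.0242 in log2.

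**Figure D3:**
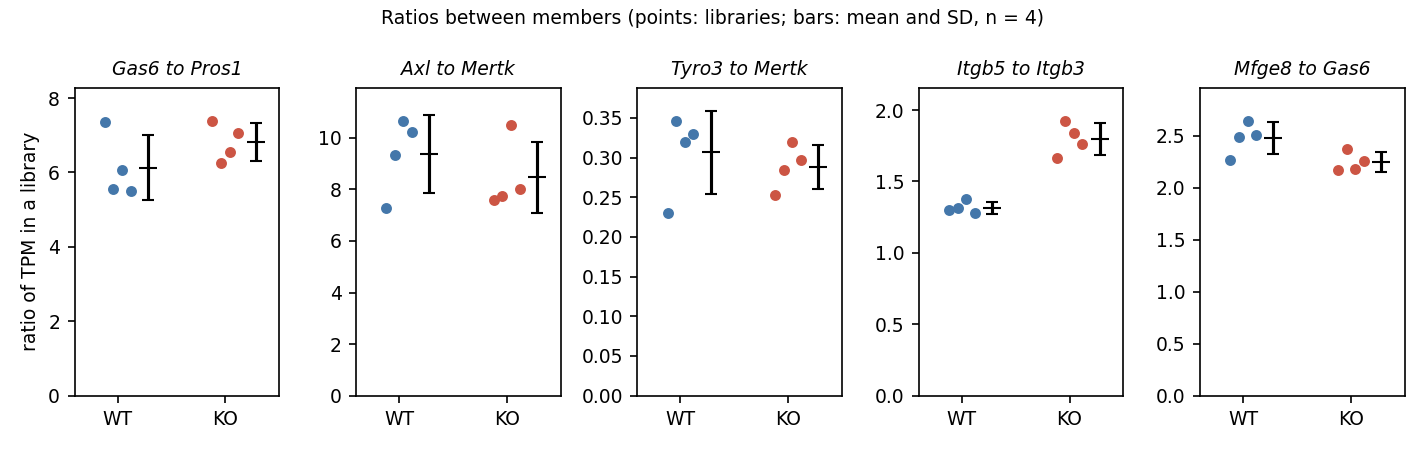
Ratios of TPM between members in each library, with axes from 0; points are libraries, and the bars beside them the mean and SD of each group (n = 4). Itgb5 to Itgb3 lies between 1.28 and 1.38 in WT and between 1.66 and 1.93 in KO, while the groups overlap in the other 4 ratios.

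Which library of a group was highest differed between members. KO replicate 3 was the highest KO library for 5 of the 9 tested members (Gas6, Pros1, Axl, Mfge8 and Itgav) and the lowest for Mertk. WT replicate 1 was the highest WT library for Gas6, Mertk, Itgb3 and Itgb5 and the lowest for Pros1, Axl and Tyro3. WT replicate 3, 1 of the 2 libraries with a high pseudogene share, was the lowest for 5 of the 9 (Gas6, Mertk, Itgav, Itgb3 and Itgb5). In KO replicate 3 the stromal chemokine Cxcl12 was at 290.2 TPM against 210 to 217 in the other KO libraries. Of the other fibroblast and stromal markers, Col3a1, Lum, Pdgfrb and Thy1 were also highest there among KO libraries. Col1a1, Col1a2, Dcn and Pdgfra were not, and these markers summed to 4474 TPM there and 4458 in KO replicate 4. The granulocyte gene S100a9 was at 86.2 TPM in KO replicate 3 against 121 to 134 in the other KO libraries. The part of these genes in the member values of KO replicate 3 was not tested.

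**Figure D4:**
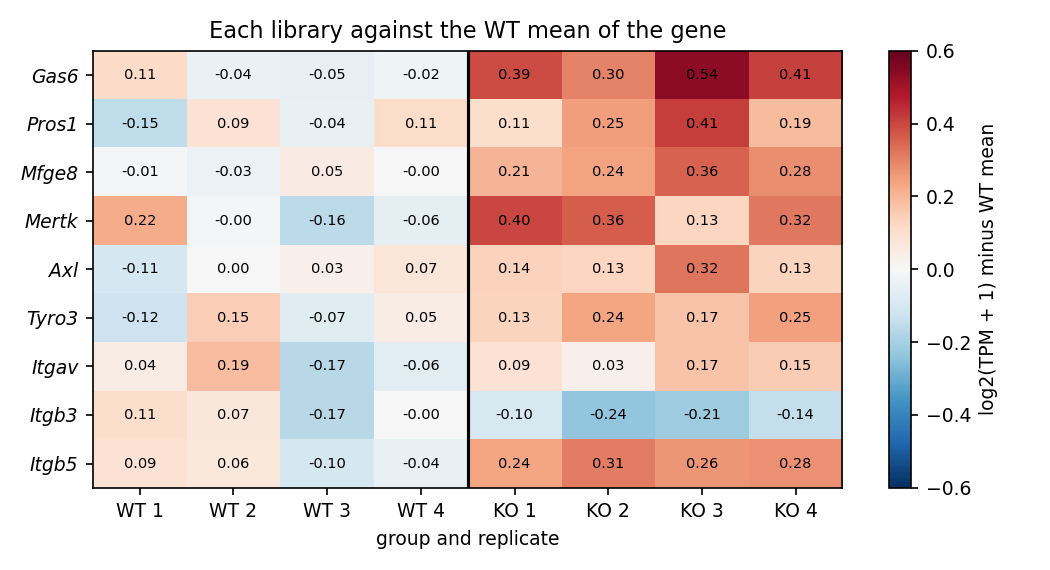
log2(TPM + 1) of each tested member in each library minus the WT mean of that gene; red is higher and blue lower. KO replicate 3 reaches 0.54 for Gas6 and 0.13 for Mertk, and Itgb3 is below 0 in all 4 KO libraries, from -0.24 to -0.10.

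The tested protein-coding genes whose profile over the 8 libraries was closest to that of Gas6, by the root mean square difference of log2(TPM + 1) centred on each gene's mean, were Man2b1, Cst3 and Arl11. The distances were 0.033, 0.041 and 0.043. Man2b1, a lysosomal α-mannosidase, had 90.6 to 105 TPM in WT libraries and 115 to 136 in KO libraries. Cst3, the cathepsin inhibitor cystatin C, had 841 to 912 TPM in WT libraries and 1059 to 1159 in KO libraries. Arl11, an ARF-like small GTPase, had 18.5 to 21.8 TPM in WT libraries and 25.4 to 27.6 in KO libraries. Among the members the distance to Gas6 was smallest for Mfge8 (0.096) and Itgb5 (0.11) and largest for Itgb3 (0.30).

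Some markers of other cells were also higher in the KO libraries, where Gas6, Mfge8 and Itgb5 rose. Of 9 fibroblast and stromal markers 8 were tested and 4 were called higher, as were 4.4% of all genes tested. The 9 summed to 3499 to 3852 TPM in WT and 4158 to 4474 in KO, mostly Col1a1 and Col1a2. None was at 0 in all libraries. Dcn (5.92 and 3.96 TPM, not called) and Lum (0.3475 and 0.22 TPM, not tested) had lower means in KO. Cxcl12 (232.4 and 232.3 TPM) and Pdgfra (11.2 and 11.8 TPM) differed little and were not called. Of 5 smooth muscle markers 4 were tested and 2, Acta2 and Cnn1, called higher (sum 2024 to 2301 TPM in WT and 2740 to 2897 in KO, nearly all Acta2 and Tagln). Des of the same list was at 2.79 to 3.71 TPM in WT and lower in each KO library, at 2.05 to 2.77, and did not pass (log2 fold change -0.39, limma adjusted p = 0.0627). Of 9 macrophage markers 2 were called higher and 1, Lyz2, the gene of lysozyme, lower. All 9 summed to 5861 to 6819 TPM in WT and 4377 to 4720 in KO, and Lyz2 alone averaged 3993 ± 248 and 1927 ± 110.1 TPM (SD, n = 4 each). The other 8 summed to 2070 to 2510 TPM in WT and 2568 to 2671 in KO, a sum chosen after the values were seen. Most of that sum was Cd68 (means 1471.5 and 1791 TPM). Adgre1, Csf1r, Fcgr1, Cd14 and Itgam also had higher means in KO. Spi1 differed little (129 and 133 TPM) and Mrc1 had a lower mean in KO (79.3 and 71.8 TPM), neither of them called. These cell types can also express Gas6, Mfge8 and αv integrins, and the part of stromal or macrophage RNA in the members' differences was not tested.

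For Itgb3, which osteoclasts and megakaryocytes also express, osteoclast markers summed to 45.3 to 54.01 TPM in WT and 54.0 to 58.0 in KO. Calcr was listed at 0 in all libraries, and 1 of 3 tested markers, Acp5, was called higher (means 12.475 and 18.92 TPM). The other tested markers, Ctsk (33.85 and 33.55 TPM) and Mmp9 (2.745 and 2.41 TPM), had slightly lower means in KO and were not called. Megakaryocyte markers summed to 1406 to 2166 TPM in WT and 1007 to 1402 in KO, almost all of it Pf4, which did not pass (limma adjusted p = 0.0824). The other megakaryocyte markers were low: Itga2b, the integrin chain that pairs with Itgb3 on platelets, was at 1.32 to 3.18 TPM over all libraries and Gp9 at 0 to 1.31. Endothelial markers summed to 29.2 to 39.6 TPM in WT and 36.5 to 42.1 in KO. Of 5 tested, Emcn was called higher (means 5.485 and 8.84 TPM, limma adjusted p = 0.0342), as were 4.4% of all genes tested, and 4 did not pass. Among those 4, Vwf had the lower mean in KO (10.7 and 8.50 TPM). Neutrophil markers summed to 191 to 283 TPM in WT and 146 to 234 in KO, and dendritic cell markers to 1.90 to 2.38 and 1.72 to 2.43. Lymphocyte markers were under 1 TPM in sum in every library. The part of these cells in the members' values was not tested.

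The rest of the uptake pathway was described through 98 other genes in 9 lists, of which 87 were tested. Of these, 13 were called higher in KO, 1 lower and 73 did not pass (16.1% called, against 5.61% of all genes tested), and their median log2 fold change was 0.10. The lists were chosen with earlier results of these data known, so these shares are a description only. The number called fell to 4 without WT replicates 3 and 4, to 8 without WT replicate 2, to 6 without WT replicate 4 and to 6, 7, 6 and 4 without KO replicates 1 to 4.

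Of 9 other bridging molecules tested, 4 rose, 0 fell and 5 did not pass, against 4.4% called higher over all genes tested. C1qa, a chain of complement C1q that tags dying cells, rose in every KO library above every WT library (201 to 234 TPM in WT, 323 to 355 in KO; log2 fold change 0.67, limma adjusted p = 0.000899), and C1qb rose by 0.35. Thbs1, thrombospondin 1, which links dying cells to CD36 and αvβ3, had 1421 to 1611 TPM in WT libraries and 1900 to 2024 in KO libraries (log2 fold change 0.36, adjusted p = 0.00780). C1qc, named after its value was seen, was the fourth (0.37). Leaving out KO replicate 4 ended the call of C1qb (adjusted p = 0.0504). That of C1qc ended without KO replicate 3 (0.0580), KO replicate 4 (0.0641) or WT replicates 3 and 4 (0.0506).

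Among other receptors for dying cells, 2 of 11 tested rose, 1 fell and 8 did not pass. Over all genes tested 4.4% were called higher and 1.21% lower. Stab1, stabilin-1, a scavenger receptor that binds phosphatidylserine, was lower in every KO library (61.8 to 71.6 TPM in WT, 41.6 to 47.7 in KO; log2 fold change -0.52, limma adjusted p = 0.00503). Havcr2, the gene of Tim-3, of the same family as Tim-4, rose from 8.48 ± 0.826 to 11.3 ± 0.481 TPM (log2 fold change 0.38), and Cd300lb, an activating CD300 receptor, from 36.1 ± 2.39 to 45.9 ± 2.48 TPM (0.34). Havcr2 lost its call in 5 of the 8 fits with 1 library left out (adjusted p up to 0.0856, without KO replicate 4; the others were WT replicate 4 and KO replicates 1 to 3). Cd300lb lost it in 4 (up to 0.0673, without KO replicate 4; the others were WT replicate 4 and KO replicates 1 and 3). Both calls also ended without WT replicates 3 and 4 together, at 0.0607 for Havcr2 and 0.0706 for Cd300lb. Havcr1 and Timd2, of the same gene family as Timd4, were listed at 0 in all libraries.

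Of 6 other integrin chains tested, 3 rose, 0 fell and 3 did not pass, against 4.4% called higher over all genes tested. These were the αMβ2 and αXβ2 chains of leukocytes, Itgam (56.5 ± 6.56 to 77.0 ± 5.96 TPM, log2 fold change 0.44), Itgax (0.49) and Itgb2 (0.24), with limma adjusted p of 0.0285, 0.0446 and 0.0467. Their calls ended in 6, 6 and 7 of the 8 fits with 1 library left out, for all 3 in those without WT replicates 2 and 4 and KO replicates 1 to 4, and for Itgb2 also without WT replicate 3. Without WT replicates 3 and 4 together all 3 calls ended (adjusted p of 0.0727, 0.0734 and 0.0942), and the log2 fold change of Itgb2 was 0.15. The β chains Itgb6 and Itgb8, which also pair with αv, were under 1 TPM, and Itgb1 averaged 440 ± 23.7 TPM in WT cultures and 470 ± 11.0 in KO cultures (adjusted p = 0.252).

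The vitamin K cycle makes Gas6 and protein S able to bind phosphatidylserine. Of its 4 genes 1 rose and 3 did not pass, against 4.4% called higher over all genes tested. Vkorc1, the reductase that recycles vitamin K, ranged from 55.9 to 61.2 TPM in WT libraries and from 65.7 to 73.7 in KO libraries (log2 fold change 0.22, limma adjusted p = 0.0391). Its call ended in all 8 fits with 1 library left out (adjusted p from 0.0601 to 0.0951), under the 3 other scalings of TPM (0.0693 to 0.0892) and without WT replicates 3 and 4 together (0.0658). Ggcx, the carboxylase itself, was at 10.1 ± 0.666 and 11.3 ± 0.600 TPM and did not pass (adjusted p = 0.211).

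Of the tested signalling genes, regulators and genes that restrain uptake, 5.26%, 9.09% and 16.7% were called, against 5.61% of all genes tested. Of 19 engulfment signalling genes, the adaptor Crk rose (log2 fold change 0.18, limma adjusted p = 0.0409) and 18 did not pass; Crk lost the call under the 3 other scalings and in 7 of the 8 fits with 1 library left out, all but that without WT replicate 3, and without WT replicates 3 and 4 together (0.0780). Of 11 regulators, 1 rose and 10 did not pass, among them the liver X receptor Nr1h3 at 20.7 ± 2.29 and 17.5 ± 1.61 TPM. Of 6 genes that restrain uptake, Pecam1 rose (0.59, adjusted p = 0.0144), which endothelial cells also express, and 5 did not pass, including Sirpa, the receptor of the CD47 signal, at 306 ± 27.4 and 325 ± 14.04 TPM; Pecam1 lost the call without WT replicates 3 and 4 (0.0617).

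By limma 0 of 7 tested TAM shedding and feedback genes and 0 of 14 tested corpse digestion genes passed at an adjusted p under 0.05 (unadjusted p under 0.05 in 1 and 5, and in 3108 of the 13933 genes tested). Adam10 and Adam17, the proteases known to shed Mertk and Axl, were at 38.0 ± 2.83 and 41.2 ± 1.69 TPM and at 29.5 ± 1.62 and 31.8 ± 0.591 TPM in WT and KO. Grb2, an adaptor of TAM receptors, was at 248 ± 28.7 and 246 ± 15.3 TPM. Lamp1, a lysosomal membrane protein, had a log2 fold change of 0.18 (adjusted p = 0.0708) and passed without WT replicate 1 (0.0433).

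**Figure D5:**
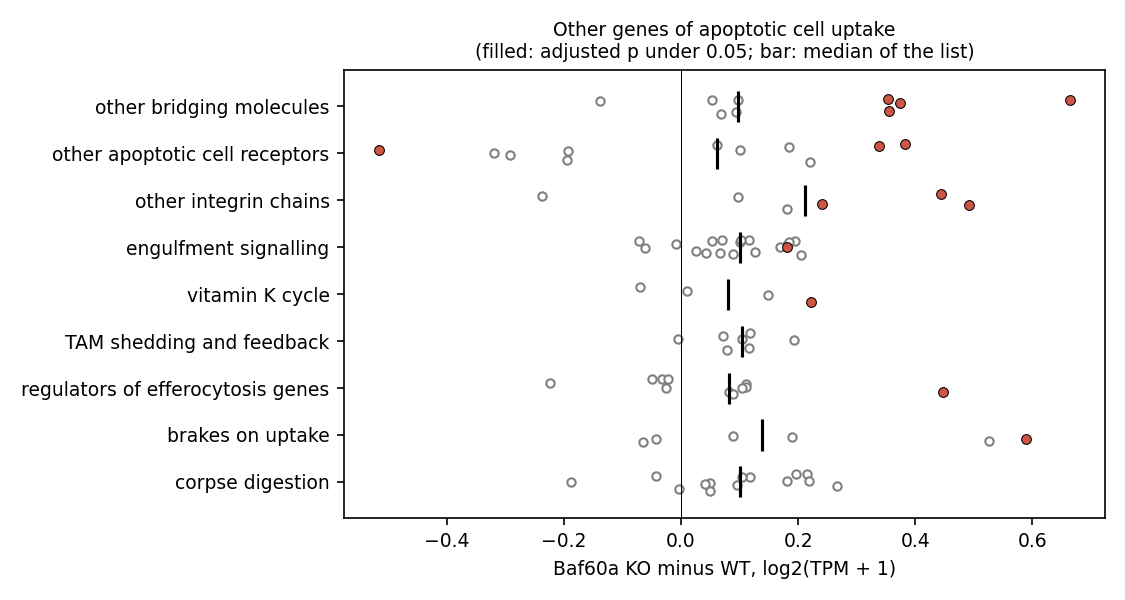
Difference of KO from WT in log2(TPM + 1) for the 87 tested genes of the 9 lists; filled points passed at adjusted p under 0.05, and the bar is the list's median. The filled points furthest out are C1qa (0.67) and Stab1 (-0.52), and the 14 filled points fall in 7 of the 9 lists.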

How the data were processed

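Per the labels' protocols, total RNA was taken with a column kit, made into libraries with a NEBNext Ultra kit and sequenced as paired 51 bp reads. The submitters' processing notes name Salmon 1.2.0, bcl2fastq and build mm10. Salmon's options, its annotation and its gene summing step were not stated. The authors deposited 1 TPM value per gene and library, a unit taken from the column sums, as each library added up to 1000000 within rounding. Symbols and coordinates came from GENCODE M21 (55154 of 55421 identifiers matched).

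Values were analysed as log2(TPM + 1) for genes over 1 TPM in at least 4 libraries by limma 3.58.1 (R 4.3.3). The model held group alone, the variance prior followed the mean level, and p-values were adjusted by Benjamini-Hochberg across the 13933 genes. The limma fit was also run on simulated data, as independent normal values drawn with the mean and spread of each gene. These draws held no effect shared by the genes of a library, and no result here rests on them. Differences are KO minus WT. Ratios of TPM were compared by exact two-sided permutation tests. Similar transcripts were sought with BLAST 2.17.0 (at least 90% identity over 100 bases). No pair of columns was identical. Alternatives covered the pseudocount, the filter, the variance model, scaling between libraries, library weights, the replicate number as a block, and libraries left out. Members, lists and the rule for named genes (all members; Smarcd1; up to 3 called genes per pathway list, or the most abundant 1; the 3 genes closest to Gas6) were chosen with earlier results of these data known. Itgb1, Itgb6, Itgb8, Ggcx, Nr1h3, Sirpa, Adam10, Adam17, Havcr1, Timd2 and single marker genes stand outside that rule and were chosen after their values were seen. Itgam is also in the macrophage marker list and Itga2b in the megakaryocyte list. No marker list was used to name cells. The values of 1 called regulator are not reported here.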

Additional observations from a re-analysis of the deposited data

Results flagged for a closer look

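Among 28 sets of 4 libraries (9 members and 5 ratios in each group), 3 had a library far from the others by Dixon's criterion, which chance meets in about 1 of 20 sets. Gas6 in WT replicate 1 was at 116.51 TPM, with the next WT library at 105.79; without it the log2 fold change of Gas6 was 0.45 in place of 0.41. Axl in KO replicate 3 was at 135.86 TPM, with the next KO library at 119.72; without it the log2 fold change of Axl was 0.13 in place of 0.18. The ratio of Axl to Mertk in KO replicate 3 was 10.5 (next 8.03), a library that was highest for Axl and lowest for Mertk among the KO libraries; without it the difference in mean log2 ratio was -0.25 in place of -0.14.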

How the results depend on the processing

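Whether each alternative was set before its values were seen is not recorded. WT replicates 3 and 4, left out together in 1 of them, were the libraries with high pseudogene shares. Against 782 genes called, the count was 209 with the replicate block, 364 with no filter on low values and 372 without WT replicates 3 and 4; leaving out 1 library gave 156 to 679. The split of higher and lower calls, 613 and 169, was 516 and 404 under median-of-ratios scaling, 440 and 254 under quantile normalization and 598 and 321 with TPM rescaled over protein-coding genes; these scalings moved the median log2 fold change of all genes from 0.03 to between -0.01 and 0.00336, and 8 members kept a positive and Itgb3 a negative difference under each. Against 3 members called, the count was 1 without WT replicates 3 and 4, 1 to 4 with 1 library left out (4 with Mertk added without WT replicate 1, and with Itgb3 added without WT replicate 3), and 2 with the replicate block (adjusted p = 0.0467 for Gas6, 0.0414 for Mfge8 and 0.0675 for Itgb5). Against 14 pathway genes called, the count was 7 with no filter, 7 with the replicate block and 4 without WT replicates 3 and 4; 1 library left out gave 4 to 16. Deviations of same-numbered libraries from their group means correlated at -0.11, 0.01, 0.0079 and -0.02 over genes. The labels link these libraries by replicate number alone, and whether they shared a preparation was not tested. As paired differences, the ratio of Itgb5 to Itgb3 differed by 0.45 (exact sign-flip p adjusted 0.208; 4 pairs allow no raw p under 0.125). Without WT replicates 3 and 4, Itgav was at -0.0048, and the log2 ratios of Axl to Mertk and Tyro3 to Mertk differed by 0.0263 and 0.0242. The difference of Grb2 changed sign to 0.0043 under quantile normalization and with library weights, and with 1 library left out ranged from -0.0599 to 0.0653. Its lowest value over all alternatives was -0.13. The causes were not tested. The read count of each library is unknown, so no counting limit can be set for Timd4.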
